A study of Mus musculus with 6 samples.

Results

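The transcripts described here are 10 genes used to mark macrophages of the heart, taken by gene name from a deposited table of 54532 genes. They fall into 5 markers of resident macrophages (Timd4, Lyve1, Folr2, Cd163 and Mrc1), 3 general macrophage markers (Csf1r, Adgre1 and Cd68) and 2 markers of recruited, monocyte-derived macrophages (Ccr2 and Lgals3). All 10 were in the table, and all 10 passed the filter on low counts. The RNA was that of left ventricles, 3 from TG and 3 from NTG males of C57BL/6J background, banded at 8 to 10 weeks of age and examined 4 weeks after aortic banding (AB), a surgical narrowing of the aorta that overloads the heart with pressure. By their labels TG mice had the genotype HINT2CTG-Myh6Cre and NTG mice were C57BL/6J. In TG mice a CAG-driven HINT2 transgene was switched on by tamoxifen, 5 mg/kg a day for 7 days, through a Cre under Myh6, a promoter of cardiomyocytes and not of macrophages. The sources used here do not say whether NTG mice carried Cre or received tamoxifen, so these cannot be told apart from the transgene. All 6 hearts were banded, so no heart without overload enters any comparison. Each library was poly-A selected RNA of one heart's ventricle, with nothing sorted, and p-values measure the spread between these 6 libraries.

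Macrophages live in the healthy heart and take up dead cells, debris and iron. A part of them is seeded before birth and renews itself locally, and these cells are marked by TIMD4, a receptor for phosphatidylserine on dying cells, LYVE1, a hyaluronan receptor, and FOLR2, a folate receptor. Under injury or overload, monocytes enter from the blood through CCR2, the receptor for the chemokine CCL2, and become macrophages, many of which lack these markers. The marker groups are therefore not exclusive. CSF1R, the receptor for the growth factors CSF1 and IL-34, sustains the whole lineage. In RNA of whole tissue, fewer cells of a type and less RNA per cell cannot be told apart.

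Libraries held 14863568 to 17581220 counts on genes, and levels are given as CPM, the count of a gene relative to its library's total after TMM scaling. Hint2 lay at 47.1 to 57.2 CPM in TG hearts, at 28.9 and 32.3 CPM in NTG 2 and NTG 3, and at 0.819 CPM in the library labelled NTG 1, which goes against that label's wild-type genotype. Below, NTG 1 stands only for what is labelled so. Hint2 had a log2 fold change of 1.33 (adjusted p = 0.433, edgeR) with all libraries and 0.77 (adjusted p = 0.0212, edgeR) without NTG 1, and whether reads of the transgene were counted at the mouse gene was not tested. Cardiomyocyte transcripts were abundant in every library, as their summed level of 7 genes was 18354 to 31138 CPM in NTG and 29784 to 36985 CPM in TG. All 7 were higher in TG by their fitted values, with and without NTG 2. With all libraries the median log2 fold change was 0.53, with 2 genes at an unadjusted p under 0.05, while edgeR and DESeq2 called 0. Without NTG 2 the median was 0.31, with 1 gene at such a p in edgeR. Without NTG 1 the median was 0.79, and edgeR called 1 of the 7 higher in TG. Mitochondrially encoded transcripts took 13.4% to 19.2% of counts in NTG and 16% to 21.5% in TG. The part of these shares in the levels of the macrophage markers was not tested. NTG 2 stood apart in the other direction from NTG 1, with the highest level of 8 of the 10 macrophage markers. It also held 254 CPM of 6 neutrophil genes, against 9.63 and 39.7 CPM in NTG 1 and NTG 3 and 8.7 to 17.6 CPM in TG. The fitted difference of each marker is therefore given also without NTG 1 and without NTG 2.

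Levels of 8 of the 10 markers were lower in TG than in NTG by their fitted values, and those of Timd4 and Folr2 were higher. Calls needed a log2 fold change beyond 0.5 in either direction together with an adjusted p below 0.05 in edgeR's quasi-likelihood test, adjusted over all 14774 genes tested. By this rule 0 of the 10 markers were called, as were 0% of all genes lower and 0% higher in TG. At an unadjusted p under 0.05 there were 4 markers, Mrc1, Csf1r, Cd68 and Lgals3, all lower in TG, beside 9.76% of all genes tested that were lower and 8.83% that were higher. For these same 4 markers every TG library lay below every NTG library, and for 0 markers every TG library lay above, beside 12.3% and 11.2% of all genes. DESeq2 called 0 markers, while it called 2.4% of all genes lower and 1.54% higher, and it gave 5 markers an unadjusted p under 0.05, all lower in TG, beside 9.35% of all genes lower and 8.96% higher. Without NTG 1, edgeR called 2 markers, Mrc1 and Csf1r, both lower in TG, beside 2.85% of all genes lower and 2.67% higher. In that fit 5 markers were lower and 1, Timd4, higher at an unadjusted p under 0.05, beside 13.3% and 13.7% of all genes. DESeq2 without NTG 1 called 4 markers lower (Cd163, Mrc1, Csf1r and Cd68), beside 5.79% of all genes lower and 5.92% higher, and it gave 7 markers lower and 1 higher at an unadjusted p under 0.05, beside 12% and 13.4% of all genes. Without NTG 2 edgeR called 0 markers, as it called 0 of all 15001 genes, and 2 markers, again Mrc1 and Csf1r, were lower at an unadjusted p under 0.05, beside 5.37% of all genes lower and 5.08% higher. By role, the fitted values had a median of −0.04 for resident, −0.61 for general and −1.26 for recruited markers, on the log2 scale, beside −0.0081 for all genes tested. Without NTG 2 these medians were 0.06, −0.32 and −0.38.

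**Figure D1:**
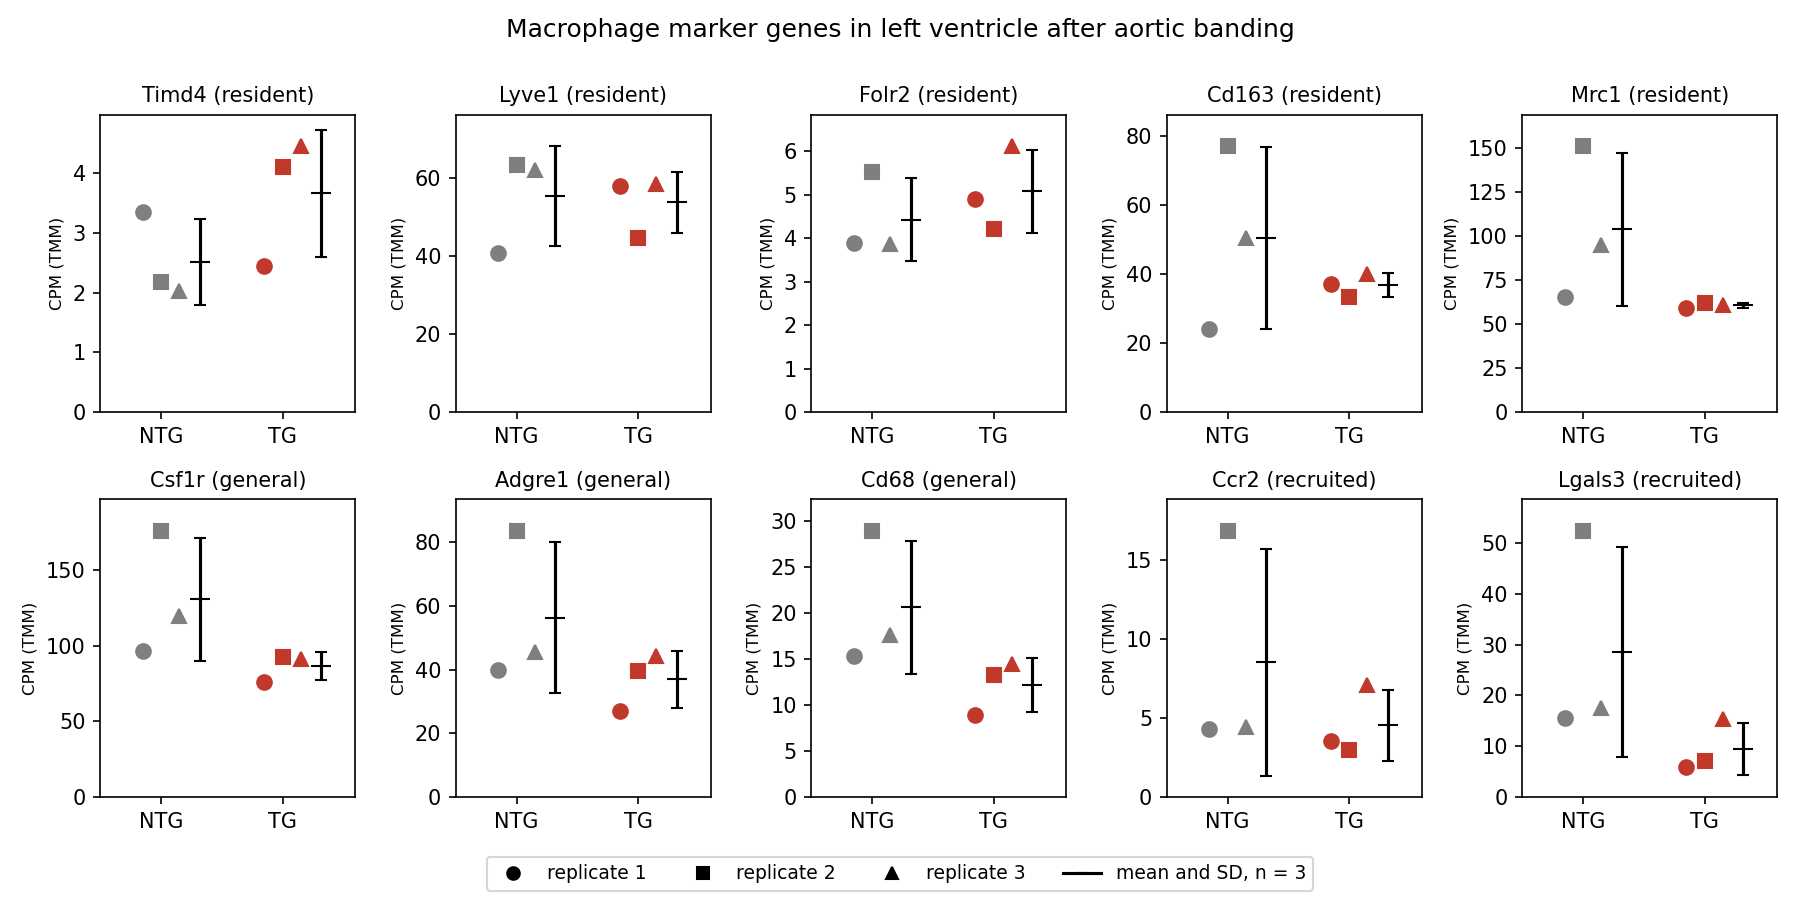
CPM of each marker in each library, grey for NTG and red for TG, with a different vertical axis for each gene that starts at 0; bars are the mean and SD of 3 libraries. NTG 2 is the highest point for 8 of the 10 genes, and the TG points lie below all NTG points for Mrc1, Csf1r, Cd68 and Lgals3.

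Among the resident markers, the 3 used to mark the self-renewing population showed no lower level in TG hearts that the spread between libraries could separate. Timd4 (ENSMUSG00000055546) measured 3.34, 2.18 and 2.02 CPM in NTG 1, NTG 2 and NTG 3 and 2.45, 4.09 and 4.44 CPM in TG 1, TG 2 and TG 3. TG 2 and TG 3 were above every NTG library, while TG 1 lay within the NTG range, and NTG 1 was the highest of its group. The mean was 3.66 ± 1.06 CPM (SD, n = 3) in TG and 2.52 ± 0.722 CPM (SD, n = 3) in NTG, from only 34 to 72 counts per library. The log2 fold change was 0.55 (standard error 0.32, 95% interval −0.17 to 1.28, adjusted p = 0.37, edgeR). Timd4 was the marker with the largest fitted value in the direction of TG, and it was positive in all 21 alternatives, between 0.39 and 0.86, with 0.80 without NTG 1 and 0.46 without NTG 2.

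Lyve1 (ENSMUSG00000030787) lay at 40.7, 63.5 and 62 CPM in NTG 1 to 3 and at 58, 44.7 and 58.6 CPM in TG 1 to 3. The groups overlapped, with NTG 1 lowest and TG 2 next to it. The means were 55.4 ± 12.7 CPM (SD, n = 3) in NTG and 53.8 ± 7.82 CPM (SD, n = 3) in TG, a log2 fold change of −0.04 with a 95% interval of −0.48 to 0.39 (adjusted p = 0.916, edgeR). The sign of this value depended on the libraries used, at −0.22 without NTG 1 and 0.06 without NTG 2. LYVE1 also stands on lymphatic endothelium, so 6 lymphatic genes were read beside it. Prox1, the transcription factor that sets lymphatic identity, was at 28.5 to 37.3 CPM in NTG and 24.7 to 37.9 CPM in TG, a log2 fold change of −0.036. Of the 5 lymphatic genes tested, 3 had an unadjusted p under 0.05 (Pdpn, Mmrn1 and Reln, all lower in TG). DESeq2 called these 3 lower, while edgeR called 0 with all libraries and the same 3 without NTG 1. The summed level of the list was 149 to 184 CPM in NTG and 122 to 146 CPM in TG. The part of lymphatic cells in the Lyve1 level was not tested.

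Folr2 (ENSMUSG00000032725) was at 3.89, 5.52 and 3.88 CPM in NTG 1 to 3 and at 4.9, 4.21 and 6.11 CPM in TG 1 to 3. Its groups overlapped, with TG 3 highest and NTG 2 next. On the log2 scale the fold change was 0.19 (95% interval −0.36 to 0.74, adjusted p = 0.687, edgeR), which was 0.11 without NTG 1 and 0.38 without NTG 2. An antisense gene, Gm10602, overlaps Folr2 and had 15 to 36 counts per library against 57 to 104 for Folr2. The library protocol describes no step that marks strand, so reads in the shared stretch cannot be assigned to either gene with certainty.

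Cd163, the scavenger receptor for haemoglobin bound to haptoglobin, and Mrc1, the mannose receptor CD206, are carried by resident cells and by other macrophages of the tissue-repair kind. Cd163 (ENSMUSG00000008845) lay at 24.2, 76.9 and 50.4 CPM in NTG 1 to 3 and at 37.2, 33.3 and 40.1 CPM in TG 1 to 3. The TG libraries lay close together, within a range that the NTG libraries spanned on both sides. Its log2 fold change was −0.46 (95% interval −1.36 to 0.44, adjusted p = 0.531, edgeR), moving to −0.79 without NTG 1 and −0.02 without NTG 2. Haemoglobin and other erythroid transcripts, which follow the blood left in the tissue, summed to 1310 to 2245 CPM in NTG and 762 to 908 CPM in TG, and their part in the Cd163 level was not tested.

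Mrc1 (ENSMUSG00000026712) measured 65.7, 151 and 95 CPM in NTG 1 to 3 and 59.2, 62.1 and 60.8 CPM in TG 1 to 3. All TG libraries were below all NTG libraries, and they differed among themselves far less than the NTG libraries did. The mean was 60.7 ± 1.44 CPM (SD, n = 3) in TG and 104 ± 43.4 CPM (SD, n = 3) in NTG, which put TG at 58.4% of NTG. The exact permutation test of the means gave p = 0.1 (two-sided), the smallest p that 3 libraries against 3 allow, and the same p held for Csf1r, Cd68 and Lgals3. The log2 fold change was −0.78 (standard error 0.28, 95% interval −1.43 to −0.13, adjusted p = 0.221, edgeR; adjusted p = 0.0685 with DESeq2). Without NTG 1 it was −1.02 (adjusted p = 0.0315, edgeR), and without NTG 2 it was −0.41 (adjusted p = 0.447, edgeR). Over 21 alternatives its adjusted p ran from 8.69e-05 to 0.482.

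Promoter sequence was read for a member with a lower fitted level in TG and one with a higher, Mrc1 and Timd4. Of the 10 markers, 7 had an entry in RefSeq's promoter windows (GRCm38.p6), each 250 bases before to 50 after the gene's start. They were searched on both strands for GAGGAAG, a form of the site of PU.1, the master factor of myeloid cells, and for TGCTGAC, a form of the site of MAF factors, and these motifs do not overlap each other. The PU.1 letters were found in 1 member, Mrc1, and the MAF letters in 1 member, Timd4, while 13.6% and 4.67% of all 32851 windows held them. In Mrc1 the matches began 168 and 36 bases before the start, and in Timd4 45 bases before it, all on the strand opposite to the gene. The 250 bases before RefSeq's start of Mrc1 (chr2:14229164-14229413, plus strand) and of Timd4 (chr11:46810549-46810798, plus strand) are shown, with the matches in capitals.
Mrc1: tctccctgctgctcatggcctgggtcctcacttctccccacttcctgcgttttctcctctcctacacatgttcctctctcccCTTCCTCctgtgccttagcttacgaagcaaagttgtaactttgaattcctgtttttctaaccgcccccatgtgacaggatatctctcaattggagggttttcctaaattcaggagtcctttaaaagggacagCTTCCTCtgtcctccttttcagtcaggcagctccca
Timd4: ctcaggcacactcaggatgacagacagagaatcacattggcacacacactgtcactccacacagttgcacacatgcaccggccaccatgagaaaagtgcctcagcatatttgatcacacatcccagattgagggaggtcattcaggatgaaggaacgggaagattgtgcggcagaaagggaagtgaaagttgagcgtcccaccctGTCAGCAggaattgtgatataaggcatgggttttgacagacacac

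The general markers were all lower in TG hearts by their fitted values. Csf1r (ENSMUSG00000024621) measured 96.8, 176 and 120 CPM in NTG 1 to 3 and 76.2, 92.9 and 91.5 CPM in TG 1 to 3. Every TG library lay below every NTG library, although NTG 1 exceeded TG 2 by a small margin. The mean was 86.9 ± 9.25 CPM (SD, n = 3) in TG and 131 ± 40.7 CPM (SD, n = 3) in NTG, or 66.4% of NTG. On the log2 scale TG differed from NTG by −0.59 (standard error 0.21, 95% interval −1.09 to −0.10, adjusted p = 0.221 with edgeR and 0.108 with DESeq2). It was −0.77 without NTG 1 (adjusted p = 0.0475, edgeR) and −0.32 without NTG 2 (adjusted p = 0.474, edgeR). The 3′ end of Csf1r overlaps Hmgxb3 on the opposite strand, a gene with 297 to 438 counts per library against 1057 to 3313 for Csf1r.

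Adgre1 (ENSMUSG00000004730) encodes F4/80, the surface protein by which mouse macrophages are usually sorted. It lay at 40, 83.5 and 45.5 CPM in NTG 1 to 3 and at 26.8, 39.7 and 44.3 CPM in TG 1 to 3, and NTG 1 fell between TG 2 and TG 3, so the groups overlapped. Its log2 fold change was −0.61 (95% interval −1.36 to 0.14, adjusted p = 0.339, edgeR), with −0.81 without NTG 1 and −0.21 without NTG 2. Cd68 (ENSMUSG00000018774), a lysosomal membrane protein of phagocytes, was at 15.4, 28.9 and 17.6 CPM in NTG 1 to 3 and at 8.87, 13.2 and 14.4 CPM in TG 1 to 3. Its groups did not overlap, with NTG 1 and TG 3 nearest to each other. TG hearts held 59% of the NTG mean, with a log2 fold change of −0.76 (standard error 0.28, 95% interval −1.41 to −0.11, adjusted p = 0.225, edgeR), which was −0.93 without NTG 1 and −0.44 without NTG 2.

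The recruited markers had the largest fitted differences and the widest spread. Ccr2 (ENSMUSG00000049103) measured 4.3, 16.8 and 4.45 CPM in NTG 1 to 3 and 3.53, 2.96 and 7.1 CPM in TG 1 to 3. NTG 2 alone was high, at 3.85 times the mean of the other NTG libraries, and TG 3 was above both of these. The log2 fold change of −0.92 (standard error 0.62, 95% interval −2.40 to 0.56, adjusted p = 0.449, edgeR) was −1.24 without NTG 1 and became 0.05 without NTG 2, so that its direction rested on that library. Counts were 49 to 317 per library.

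Lgals3 (ENSMUSG00000050335) encodes galectin-3, a galactoside-binding lectin that inflammatory macrophages secrete and that other cells of injured tissue also make. It measured 15.6, 52.4 and 17.5 CPM in NTG 1 to 3 and 5.84, 7.05 and 15.3 CPM in TG 1 to 3. TG 1 and TG 2 were clearly lower than all others, while TG 3 lay just under NTG 1, so the groups did not overlap by a narrow gap. The mean was 9.4 ± 5.15 CPM (SD, n = 3) in TG and 28.5 ± 20.7 CPM (SD, n = 3) in NTG, or 33% of NTG. The log2 fold change was −1.60 (standard error 0.58, 95% interval −2.99 to −0.21, adjusted p = 0.229, edgeR), the largest of the 10 in size. Leaving out 1 library at a time moved it from −2.15 to −0.81, with −1.89 without NTG 1 and −0.81 without NTG 2 (adjusted p = 0.173 and 0.535, edgeR). Fibroblast genes, a sum of 7 that includes the collagens and Postn, were at 4527 to 10672 CPM in NTG and 2193 to 3845 CPM in TG. Of these 7, edgeR called 0, with 6 lower at an unadjusted p under 0.05, DESeq2 called 4 lower, and Tcf21 had a log2 fold change of −0.05 with overlapping groups. Their part in the Lgals3 level was not tested.

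**Figure D2:**
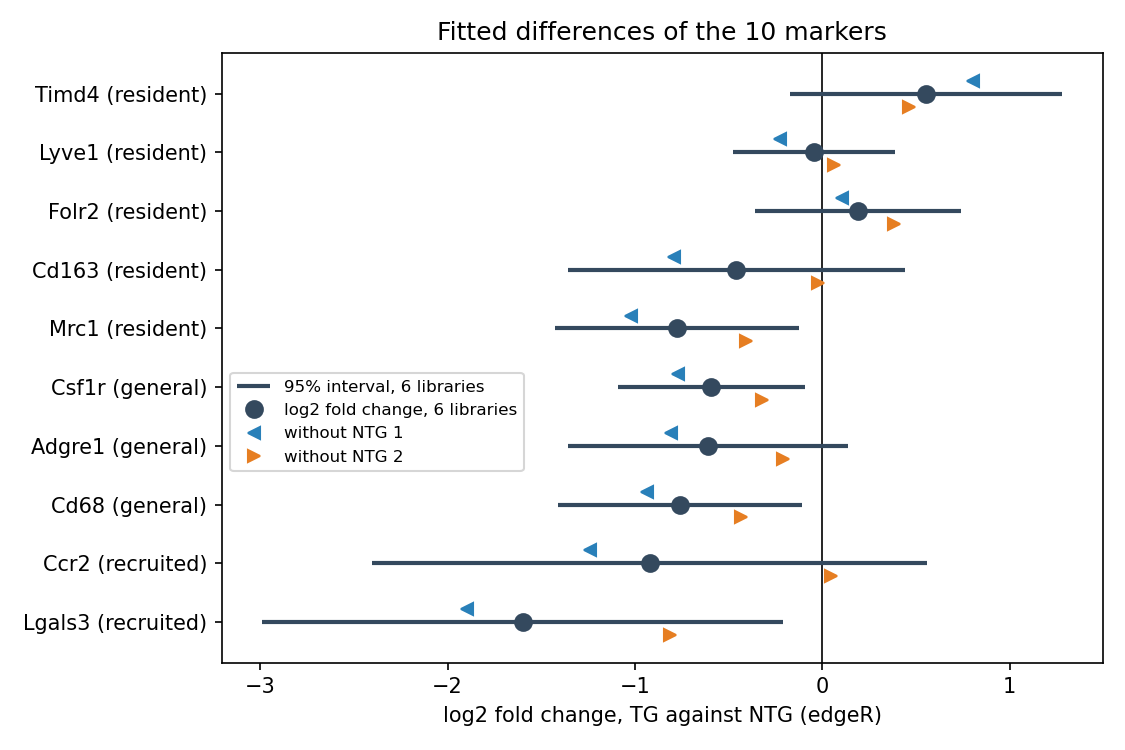
Log2 fold change of TG against NTG for each marker from edgeR's fit; circles and lines are the value and its 95% interval with 6 libraries, and triangles are the values without NTG 1 or without NTG 2. Intervals of Mrc1, Csf1r, Cd68 and Lgals3 lie below 0, and without NTG 2 the values from Cd163 to Lgals3 lie nearer to 0, with Ccr2 at 0.05.

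The markers were next set against Csf1r within each library, since a ratio inside one library does not depend on how that library was scaled. Relative to Csf1r, Folr2 was higher in every TG library, at 0.0643, 0.0453 and 0.0668 in TG 1 to 3 against 0.0402, 0.0314 and 0.0323 in NTG 1 to 3. The difference was 0.75 on the log2 scale (exact permutation test, two-sided, p = 0.1, and 0.36 when adjusted over 9 ratios). Of this, Csf1r itself accounted for the larger share, since it was at −0.59 and lower in every TG library, while Folr2 alone was at 0.19 with overlapping groups. Lyve1 per Csf1r was 0.761, 0.482 and 0.64 in TG 1 to 3 and 0.42, 0.361 and 0.516 in NTG 1 to 3, so that only NTG 3 and TG 2 crossed. The difference was 0.53 on the log2 scale (exact p = 0.2, adjusted 0.36). Timd4 per Csf1r differed by 1.08 (exact p = 0.2, adjusted 0.36), with NTG 1 above TG 1 and the other NTG libraries below all TG libraries. Cd163 and Mrc1 did not follow, with differences of 0.25 and −0.14 and overlapping groups. Adgre1, Cd68 and Ccr2 per Csf1r differed by −0.011, −0.18 and −0.15, again with overlapping groups. Lgals3 per Csf1r differed by −0.95, but TG 3 lay above NTG 1 and NTG 3. With 3 libraries a group and an exact p of at least 0.1, none of the 9 ratios could pass an adjusted p of 0.05.

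**Figure D3:**
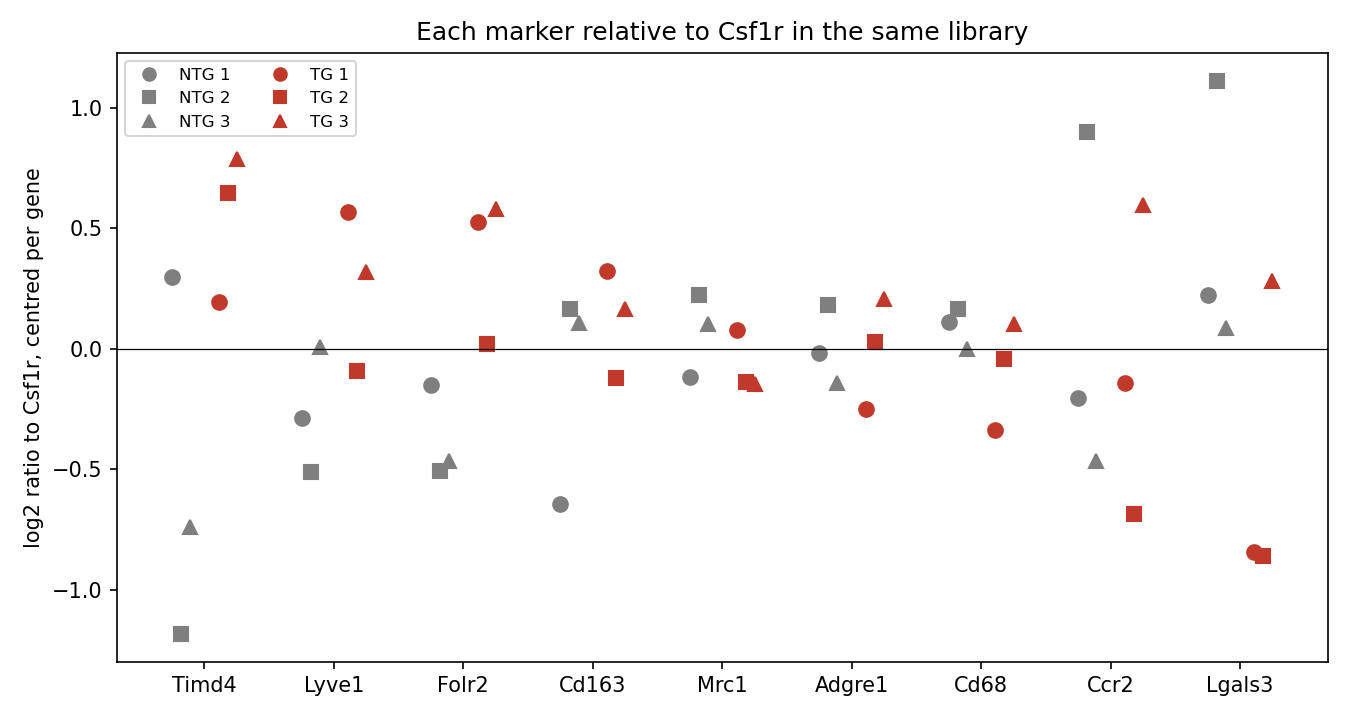
Log2 ratio of each marker to Csf1r in the same library, centred on the mean of the group means for each gene, grey for NTG and red for TG. Folr2 is higher in all TG libraries, and for every other gene the groups overlap.

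Levels were compared between genes per kilobase of the deposited gene length. By the mean of 6 libraries Csf1r came first at 22.3 CPM per kilobase, followed by Lyve1 at 18.7, Adgre1 at 14.4, Cd68 at 13.1, Mrc1 at 12.9, Lgals3 at 10.2, Cd163 at 8, Folr2 at 3.07, Timd4 at 1.42 and Ccr2 at 0.966. Of these neighbours Adgre1 was above Cd68, Cd163 above Folr2 and Folr2 above Timd4 in 6 of 6 libraries. The order of Cd68 and Mrc1 held in 3 of 6, that of Csf1r and Lyve1 in 4 of 6, and Lgals3 was above Cd163 in 4 of 6, so these neighbours did not differ beyond their spread. The order also depended on the group, since in TG the mean of Lyve1 (18.4 CPM per kilobase) was above that of Csf1r (17.8) and Cd163 (6.75) above Lgals3 (5.06), while in NTG Csf1r (26.8) was above Lyve1 (18.97) and Lgals3 (15.3) above Cd163 (9.25). Timd4 and Ccr2 were at 1.16 and 1.26 in NTG and at 1.69 and 0.67 in TG. Markers of the self-renewing population thus lay at both ends of the order, Lyve1 among the most abundant and Timd4 among the least. NTG libraries had a larger SD than TG libraries for 8 of the 10 markers. Within TG, TG 3 was the highest library for 8 markers.

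**Figure D4:**
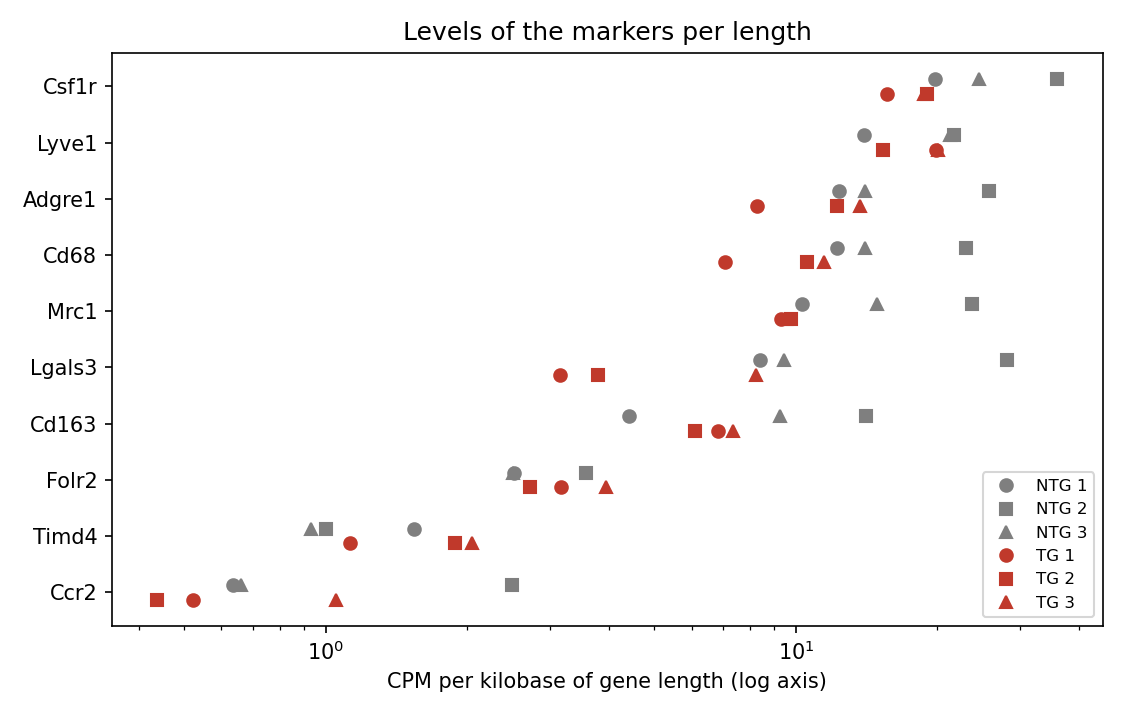
CPM per kilobase of gene length for each marker and library on a log axis, ordered by the mean of 6 libraries, grey for NTG and red for TG. Csf1r and Lyve1 are at the top and Timd4 and Ccr2 at the bottom, and NTG 2 stands to the right for most genes.

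Further genes of the lineage were read from lists. The median log2 fold change of 11 further resident macrophage genes tested was −0.24. Of these genes 3 had an unadjusted p under 0.05, all lower in TG, beside 9.76% of all genes lower and 8.83% higher. The 3 were Igf1, a growth factor, at −0.98, Vsig4, a complement receptor of tissue macrophages, at −1.17, and F13a1, the coagulation factor XIII subunit, at −0.70. Without NTG 2 they were at −0.71, −0.97 and −0.43, and the median of the list was −0.13. DESeq2 called Igf1, and edgeR without NTG 1 called Vsig4 and F13a1, all lower in TG. Pf4 and Clec10a, of the same list, were at 0.083 and 0.031. Of 18 further general genes, 17 were lower in TG by their fitted values, beside 51.3% of all genes. Without NTG 2, 13 of the 18 were lower, in a fit where the median of all genes was −0.0011. With all libraries the median of the 18 was −0.50. An unadjusted p under 0.05 was reached by 4, all lower, beside 9.76% of all genes lower and 8.83% higher. Among them were the endotoxin co-receptor gene Cd14 at −0.98, the Fc receptor gene Fcgr3 at −0.86 and the integrin gene Itgam at −1.23. Without NTG 2 these were at −0.82, −0.43 and −0.57, and the median of the list was −0.20. DESeq2 called Cd14 lower in TG. The 3 C1q genes, expressed by nearly all tissue macrophages, were at −0.33, −0.42 and −0.19, with overlapping groups, and at 0.0057, −0.082 and 0.099 without NTG 2.

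Of 13 monocyte and inflammatory macrophage genes tested, 5 were lower in TG at an unadjusted p under 0.05 and 0 were higher. Over all genes tested these shares were 9.76% and 8.83%. The median of the list was −0.65, or −0.16 without NTG 2. Gpnmb and Trem2, carried by lipid-laden and scar-associated macrophages, had log2 fold changes of −1.23 and −1.23, and their groups did not overlap. Gpnmb was at 3.08 ± 0.0905 CPM (SD, n = 3) in TG and 7.25 ± 2.6 CPM (SD, n = 3) in NTG. Spp1, the gene of osteopontin, was at −2.41, and DESeq2 called these 3 genes lower in TG. Without NTG 2, Gpnmb, Trem2 and Spp1 were at −0.95, −0.66 and −1.70. The other genes of the list at an unadjusted p under 0.05, Cd9 and Ace, were at −0.33 and −0.71. Without NTG 2 they were at −0.31 and −0.65. Which cells of the ventricle gave the transcripts of Cd9 and Ace was not tested. The gene of this list that marks classical monocytes, Ly6c2, was at 0.77 with overlapping groups, from 0.752 to 4.2 CPM. Its highest level was that of TG 3. The value ran from −0.034 to 1.20 when 1 library was left out at a time. With all libraries edgeR called no gene of these lists.

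The ligands of both receptors were read next. Ccl2, the main CCR2 ligand, was at 14.9, 15.3 and 43.3 CPM in TG 1 to 3 and at 3.96, 12.2 and 6.54 CPM in NTG 1 to 3. All TG libraries lay above all NTG libraries, TG 3 most. Its log2 fold change was 1.68 (adjusted p = 0.217, edgeR), and it ran from 0.99 to 2.21 when 1 library was left out at a time, with 1.38 without NTG 1 and 2.21 without NTG 2. Ccl7, another CCR2 ligand, was at 5.86 to 21.4 CPM in TG and 1.98 to 8.5 CPM in NTG. Ccl8 was at 2.88 to 12.3 CPM in TG and 7.3 to 14.2 CPM in NTG, and both genes had overlapping groups. The log2 fold change of Ccl7 was 1.295, with 0.95 without NTG 1 and 2.14 without NTG 2. It ran from 0.43 to 2.14 when 1 library was left out at a time. Ccl12 was at 0.074, with −0.36 without NTG 1 and 0.998 without NTG 2. For CSF1R, the ligand genes Csf1 and Il34 were at 0.26 and −0.47, with adjusted p of 0.542 and 0.294 from edgeR. Csf1 was at 95 CPM in TG 3 and 55.6 and 54.3 CPM in TG 1 and TG 2, and its value ran from −0.052 to 0.40 when 1 library was left out at a time, while Il34 was at −0.23 without NTG 2. Csf2rb, the shared beta chain of the receptors for GM-CSF, IL-3 and IL-5, was at −1.76 with no overlap. NTG 2 held 3.4 times the mean level of the other NTG libraries, and without it Csf2rb was at −0.91. Irf8, a monocyte and dendritic cell factor, was at 0.36 with overlapping groups. Both had an unadjusted p under 0.05 and neither was called by edgeR, while DESeq2 called Csf2rb lower in TG (adjusted p = 0.0142).

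Other leukocytes did not share one direction. The sum of 5 genes of all leukocytes was 78.3 to 127 CPM in TG and 94.2 to 213 CPM in NTG, where NTG 2 alone exceeded the TG range. All 5 tested neutrophil genes were lower in TG by their fitted values, 4 of them at an unadjusted p under 0.05, with a median log2 fold change of −3.20. Without NTG 2 none of the 5 had such a p (0 in edgeR), and the median was −1.09. Of the 5, 0 had groups without overlap, and their sum in NTG 1 lay within the TG range. Ly6g, a defining neutrophil gene, was at or near 0 in all libraries, with 0.903 CPM in NTG 2. T cell genes summed to 2.81 to 9.44 CPM in TG and 3.18 to 6.62 CPM in NTG, and B cell genes to 2.22 to 3.53 and 1.68 to 4.64 CPM. Of 6 dendritic cell genes 3 were higher and 3 lower by their fitted values (0 lower without NTG 2), and their sum was 50.6 to 64.9 CPM in TG and 37.2 to 47.2 CPM in NTG. Most of this sum was 1 gene, Zbtb46, at 46.1 ± 6.84 CPM (SD, n = 3) in TG and 29.5 ± 6.12 CPM (SD, n = 3) in NTG. Which cells of the ventricle gave the Zbtb46 transcripts was not tested, so the sum does not measure dendritic cells alone. DESeq2, and edgeR without NTG 1, called Zbtb46 higher in TG, while edgeR with all libraries called 0 of the 6, with 1 at an unadjusted p under 0.05. Of 4 mast cell genes 2 were higher and 2 lower by their fitted values. Blood endothelial genes summed to 1471 to 1616 CPM in TG and 1393 to 1604 CPM in NTG. The part of these cells in the levels of the macrophage markers was not tested.

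**Figure D5:**
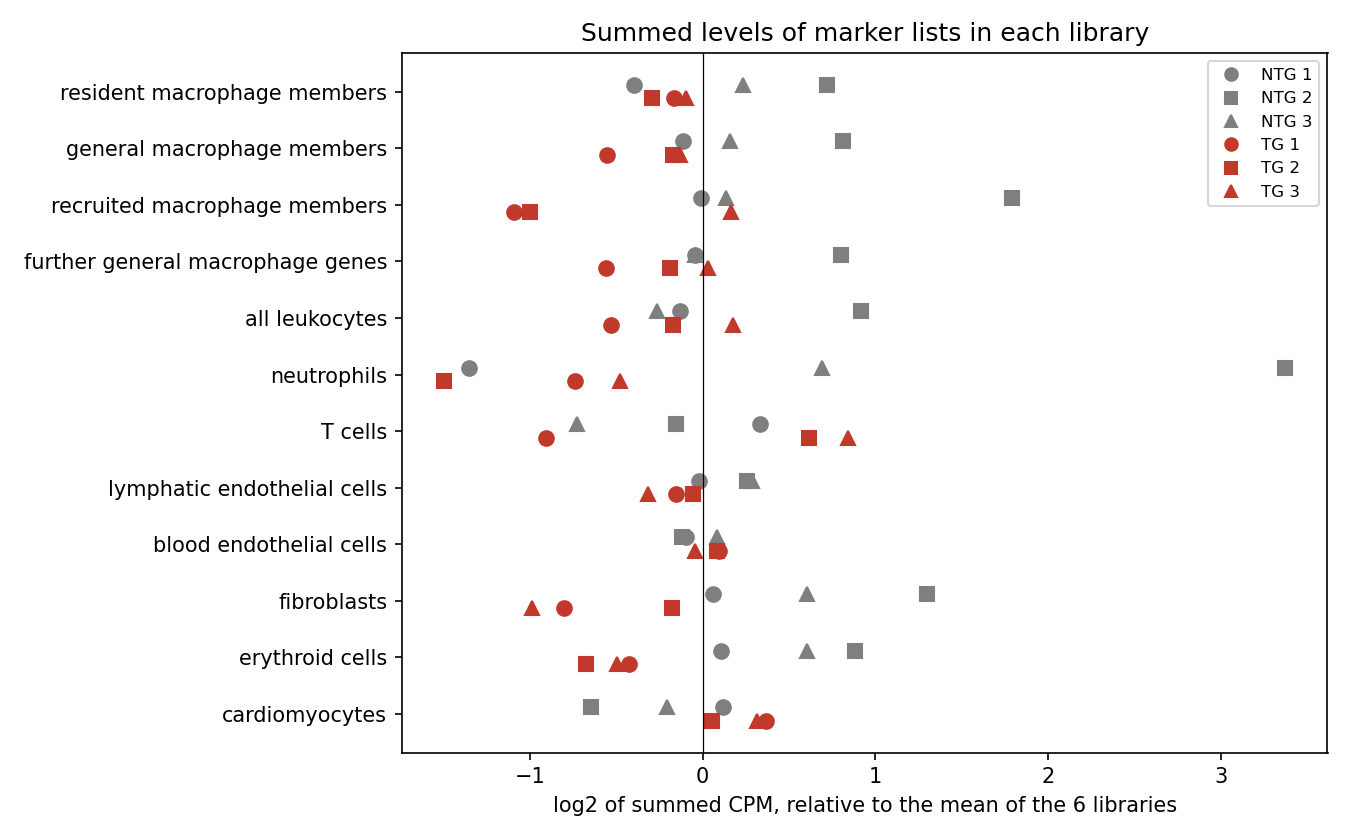
Summed CPM of marker lists in each library on a log2 scale relative to the mean of the 6 libraries, grey for NTG and red for TG. NTG 2 lies to the right for the macrophage, leukocyte, neutrophil and fibroblast lists and to the left for cardiomyocytes.

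By the pattern over the 6 libraries, the genes nearest to Csf1r among all genes tested were Tmem176b, Serpind1 and Rnf149, with Pearson's r of log2 CPM of 0.998, 0.997 and 0.997. Those nearest to Lyve1 were Smarcc2, Adgrg6 and Cep120, at 0.982, 0.98 and 0.974, and those nearest to Lgals3 were Plscr2, Tiparp and Ugt1a7c, at 0.992, 0.99 and 0.99. An r over 0.95 was reached by 344 genes for Csf1r, 118 for Lgals3 and 12 for Lyve1. These are descriptions over 6 points that share 1 high library, NTG 2, for Csf1r and Lgals3.

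Positions in the table are those of mouse genes, and 9 of the 10 markers had the same start and end in GENCODE mouse release 21 (GRCm38). Mrc1 spans chromosome 2 from 14229392 to 14332057, Timd4 chromosome 11 from 46810800 to 46844332 and Lyve1 chromosome 7 from 110850607 to 110863239. Lgals3 spans chromosome 14 from 47367751 to 47386160, and Ccr2 chromosome 9 from 124101950 to 124113557. Csf1r is listed from 61105572 to 61132149 on chromosome 18, where release 21 begins it at 61100598. All 10 are protein-coding genes, and counts cover their exons as the authors' annotation defined them.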

How the data were processed

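Poly-A RNA of 3 TG and 3 NTG ventricles was sequenced. Per the study's methods, reads were cleaned with in-house scripts and mapped, StringTie predicted further transcripts, and featureCounts gave the gene counts. The submitters' processing notes list HISAT2, DESeq2 and GRCh38, a human build, while gene identifiers and positions are of mouse. The authors deposited raw counts without normalization, which are used here, and gene lengths in bases, with 0 sample columns unmatched. No strand-marking step is described, and the treatment of multiply mapped reads is not given in the sources used here.

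The analysis used edgeR 4.0.16 under R 4.3.3 (TMM, filterByExpr, robust quasi-likelihood test, TG against NTG, no covariate, Benjamini-Hochberg adjustment over 14774 genes). Standard errors were taken from the F statistic, and log2 CPM had a prior count of 2. Exact permutation tests were two-sided. The fits were tested on simulated data. Named from each lineage list were the 3 genes with the smallest unadjusted p, besides Prox1 and, for Csf1r, Lyve1 and Lgals3, the 3 genes with the highest correlation. Other genes named from the lists, and the 2 printed promoters, were chosen after their values were seen. These genes were Pf4, Clec10a, the C1q genes, Ly6c2, Cd9, Ace, Csf1, Ccl12, Ly6g, Zbtb46, Tcf21, Pdpn, Mmrn1 and Reln. The members, lists and tests were chosen with earlier results of these data known. In all, 20 other settings were tried and 1 was added later, with DESeq2 1.42.0 and limma 3.58.1 among them. Chi-square per gene between libraries was 15.5 to 133, so none was a duplicate. The labels give no batch. Precision is limited by 3 libraries a group and, for Timd4, Folr2 and Ccr2, by low counts.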

Additional observations from a re-analysis of the deposited data

How the results depend on the processing

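The count of genes called depended on the test, the filter and the libraries, and the cause was not tested. edgeR called 0 genes and 0 of the 10 markers under RLE scaling, library size alone, at least 10 counts in every library and robust = FALSE, as did limma-voom. Dropping the low-count filter gave 232 called genes and DESeq2 gave 583, with 0 markers in either. Without a filter 2 markers had an unadjusted p under 0.05, against 4. With the replicate number as a block (replicate block) edgeR called 231 genes and 0 markers. Same-numbered TG and NTG libraries deviated from their group means with correlations of 0.0807, 0.173 and −0.252. So few libraries cannot show whether they share more than a number, and this was not tested. Leaving out 1 library at a time, with edgeR or DESeq2, gave 0 to 1773 genes called, 0 to 4 markers called and 1 to 8 markers at an unadjusted p under 0.05. edgeR called 836 genes without NTG 1, with 6 markers at an unadjusted p under 0.05. DESeq2 called 1773 of 15136 genes without NTG 1, 123 without NTG 2, 169 without NTG 3, 179 without TG 1, 778 without TG 2 and 96 without TG 3. It called Cd163, Mrc1, Csf1r and Cd68 without NTG 1 (4 markers) and Lgals3 without TG 3 (1 marker). edgeR gave 1 marker at an unadjusted p under 0.05 without TG 1 and 1 without TG 2, where 7 genes were called. The medians of these fits ran from −0.22 to 0.08 for the resident, −0.81 to −0.32 for the general and −1.78 to −0.38 for the recruited markers. Without both NTG 1 and NTG 2, added after the data were seen and with the lone NTG library assumed to vary like TG, 15 genes and 0 markers were called, with medians of −0.21, −0.47 and −0.44. Each fitted direction held in all 21 alternatives for 8 of the markers, and in 15 for Lyve1 and 18 for Ccr2.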
